A study of Drosophila melanogaster with 12 samples.

Results

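Phototransduction genes that act downstream of rhodopsin were followed through an RNA immunoprecipitation of the RNA-binding protein Caper from adult *Drosophila melanogaster* heads. The set holds 10 genes of the 17612 that were counted, chosen by name for their place in the cascade. They are *Galphaq*, *Gbeta76C*, *norpA*, *trp*, *trpl*, *inaD*, *inaC*, *ninaC*, *Arr1* and *Arr2*. All 12 libraries came from heads of flies that carried the heat shock driver Hsp70Gal4 and UASCaperFlag, so FLAG-tagged Caper was overexpressed in every group, the inputs included, and the age and sex of the flies were not given in the sources used here. All flies were held at 37°C for 2 h and then at 30°C overnight. RNA was sequenced from 3 immunoprecipitates (IPs) with a polyclonal antibody against Caper (replicates 1 to 3), from 3 IPs with an antibody against the FLAG tag (replicates 4 to 6), and from the input of each IP, the lysate from which it was taken. No mock IP was analysed here, so each IP was set against its inputs, and a gene below its input level is under-represented in the IP relative to the other genes counted.

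In the fly eye, light isomerises the chromophore of rhodopsin, and activated rhodopsin switches on a heterotrimeric G protein of the Gq class. The G protein activates a phospholipase C, which splits the membrane lipid PIP2, and the TRP and TRPL cation channels then open and depolarise the photoreceptor. A scaffold protein holds the phospholipase, the TRP channel and a protein kinase C together in the rhabdomere, the stack of microvilli that carries rhodopsin, and arrestins end the response by binding activated rhodopsin. These transcripts are abundant in fly heads, of which the compound eyes form a large part.

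Library totals ran from 9615414 to 34264177 counted read pairs. Of the alignments listed in the counting summary, 22.7% to 26.2% were assigned to genes in the 6 inputs, 69.3% to 72.4% in the Caper IPs and 53.7% to 60.1% in the FLAG IPs. Multimapping alignments, of reads that may be listed once for each place, made up 71.7% to 75.2%, 21.7% to 24.7% and 34.3% to 40.9% of the alignments, which are not shares of reads. This difference in library composition runs along with IP against input, and its part in the results was not tested. The 10 genes together held 2.54% to 2.96% of the counts in the inputs, 1.76%, 2.85% and 2.99% in Caper IPs 1, 2 and 3, and 1.61% to 1.82% in the FLAG IPs. Counts of single members ran from 2574 to 258374 per library, so counting error was at most 1.97%. Caper IP 1 stood apart from the other Caper IPs, with a median absolute log2 difference to them of 0.30 over genes, against 0.13 to 0.23 for the other 11 libraries within their groups. In that library 8 of the 10 genes were lower than in both other Caper IPs, *norpA* and *trpl* being the exceptions, and the summed level of 6 fat body markers was 21600.1 CPM (read counts scaled to a common library size, as described with the input levels), against 5666 and 4601 CPM in Caper IPs 2 and 3. The inputs of replicates 1 to 3 held 15189, 10435.5 and 5385 CPM of these markers. All 12 photoreceptor markers were detected in the heads and summed to 26834 to 32569 CPM in the inputs. Positions below are those of the deposited table (annotation dmel_r6.36). The genes *inaD*, *trpl*, *Arr2* and *norpA* overlap a gene on the opposite strand, of which *RpL23* beside *inaD* had 11953 to 49587 counts and the others at most 323, and reads were counted by strand. In such bulk RNA, fewer cells of a type and less RNA per cell cannot be told apart.

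In the inputs the 10 genes were among the more abundant transcripts of the head, with levels that spanned 115-fold. Levels between genes were compared as CPM per kilobase of exon, where CPM are the counts of a library scaled by its total and its trimmed-mean (TMM) factor, and are given as mean ± SD over the 6 inputs. *Arr2*, the major arrestin, was highest at 4438 ± 488 CPM per kb and ranked 12 of 11012 genes. The channel gene *trp* followed at 1608 ± 273 CPM per kb and *Arr1*, the other visual arrestin, at 1081 ± 90.6 CPM per kb. Below them lay *ninaC* at 823 ± 83.5 CPM per kb and *trpl* at 737 ± 136 CPM per kb, whose ranges over the 6 inputs overlapped. *Gbeta76C*, the G protein beta subunit of the eye, stood at 555 ± 35.96 CPM per kb. The phospholipase gene *norpA* at 379.6 ± 22.7 and the scaffold gene *inaD* at 329.6 ± 20.7 CPM per kb overlapped in range. The kinase gene *inaC* stood at 186 ± 16.98 CPM per kb, and *Galphaq*, which is also used outside the eye, was lowest at 38.7 ± 2.29 CPM per kb, rank 1461 of 11012. No other neighbours in this order overlapped.

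Most of these transcripts were under-represented in the FLAG IP, several also in the Caper IP, and none was called higher in either. In the FLAG IP, 9 of the 10 genes were lower than in the inputs at an adjusted p below 0.05 (edgeR's quasi-likelihood test with Benjamini-Hochberg adjustment over all genes tested), where 20.8% of 10476 genes were called lower, and the same number with each IP paired with its own input as a replicate block, where 29.5% were. In the Caper IP, 4 of the 10 were called lower, where 7.53% of 10778 genes were, and 8 of the 10 were called lower with the replicate block, where 14.8% of genes were. DESeq2 without the block called 7 of them lower in the Caper IP, where 11.7% of the 9733 genes to which it gave an adjusted p were called lower. The median log2 fold change of the 10 genes was -0.55 with the Caper antibody, beside 0.03 over all genes tested, and -0.87 with the FLAG antibody, beside -0.00035 over all genes. *Arr1* and *Gbeta76C* were the 2 lowest members in both IPs, and *trp* was the only member that was called in neither.

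**Figure D1:**
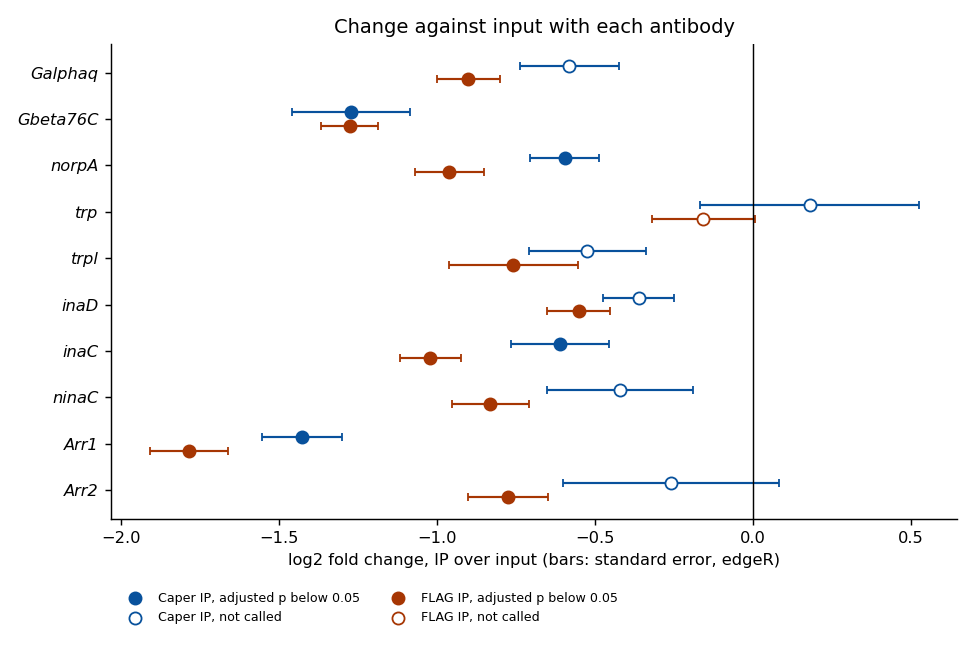
The log2 fold change of IP over input (x axis) with its standard error is plotted for each of the 10 genes (y axis), blue for the Caper IP and brown for the FLAG IP, with filled points for an adjusted p below 0.05. Of the 20 points, 13 are filled and all of these lie left of 0, and *trp* has open points with both antibodies.

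The number of members called lower in the Caper IP changed with the library left out. In these fits the log2 fold changes of the 4 genes called stayed below 0. They ran from -1.49 to -1.38 for *Arr1*, -1.38 to -1.10 for *Gbeta76C*, -0.66 to -0.55 for *norpA* and -0.73 to -0.48 for *inaC*. Each such fit held 1 library fewer, and the part of this in the lost calls was not tested. Of the 4 genes called, *Arr1* was called whichever library was left out, while 1 of the 10 genes was called lower without Caper input 1, where 1.8% of all genes tested were, and 1 without Caper input 2, where 0.926% were. Without Caper input 3 it was 3 of the 10, where 2.96% of genes were called lower. Without Caper IP 2 or Caper IP 3 it was 2 of the 10, where 2.54% and 3.32% of genes were, and without Caper IP 1 it was 6 of the 10, where 11.1% were.

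Of the G protein subunits, *Gbeta76C* was lower in both IPs and *Galphaq* in the FLAG IP. *Gbeta76C* (FBgn0004623, chromosome arm 3L, 19687637 to 19689992, plus strand), which encodes the beta subunit that couples to rhodopsin, was at 884, 873 and 776 CPM in Caper inputs 1 to 3 and at 256, 386 and 396 CPM in the Caper IPs. With the FLAG antibody it was at 754, 796 and 803 CPM in inputs 4 to 6 and at 327, 310.3 and 326 CPM in the IPs. Every IP thus lay below every input with both antibodies, Caper IP 1 lowest of all. The change was -1.27 (SE 0.19, adjusted p = 0.0116) on the log2 scale in the Caper IP, 0.414 of the input level, and -1.28 (SE 0.09, adjusted p = 0.000155) in the FLAG IP. The Caper IP call was lost without Caper input 1 (adjusted p = 0.0532, edgeR) or Caper input 2 (adjusted p = 0.0774). *Galphaq* (FBgn0004435, chromosome arm 2R, 12612740 to 12623197, plus strand), the alpha subunit that activates the phospholipase, was at 261, 261 and 294 CPM in the Caper inputs and at 143, 187 and 210.3 CPM in the Caper IPs. In the FLAG inputs it was at 268, 247 and 272 CPM and in the FLAG IPs at 151, 126 and 141 CPM. Again no IP reached an input. The change was -0.58 (SE 0.16, adjusted p = 0.0558) with the Caper antibody, past the threshold with the replicate block (adjusted p = 0.00738), and -0.90 (SE 0.10, adjusted p = 0.00065) with the FLAG antibody. *Galphaq* overlaps a gene on its own strand, *CG45086*, which had 0 counts in all 12 libraries.

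The effector of the cascade fell in both IPs. *norpA* (FBgn0262738, chromosome X, 4322626 to 4365408, plus strand), which encodes the phospholipase C that hydrolyses PIP2, was at 3420.0, 3262 and 3023 CPM in the Caper inputs and at 2313, 1992 and 2056 CPM in the Caper IPs. In the FLAG inputs it was at 2882, 3195 and 3114 CPM and in the FLAG IPs at 1550.4, 1617 and 1517 CPM. The groups did not overlap with either antibody, and Caper IP 1, the lowest Caper IP for most members, was the highest for *norpA*. It changed by -0.60 (SE 0.11, adjusted p = 0.0203) with the Caper antibody and by -0.96 (SE 0.11, adjusted p = 0.000773) with the FLAG antibody, to 0.661 and 0.514 of the input level. The Caper IP call was lost in 4 of the 6 fits that each left out 1 library, without Caper input 1 or 2 or Caper IP 2 or 3, at an adjusted p of 0.0601 to 0.102.

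**Figure D2:**
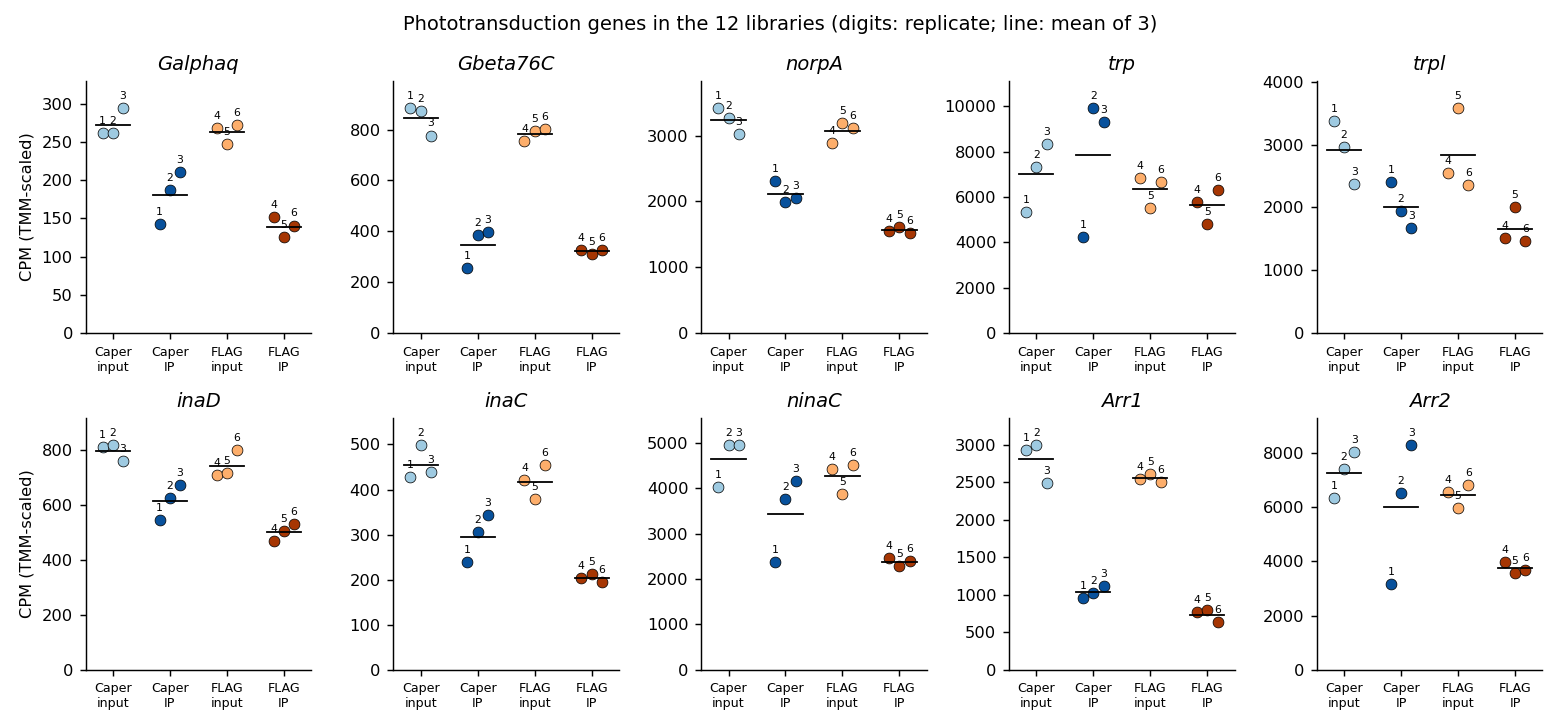
TMM-scaled CPM (y axis, from 0, 1 panel per gene) is plotted for each library of the 4 groups (x axis), with the replicate number above each point and a line at the mean of 3. The IP points lie below the input points in both antibodies for 6 genes, while for *trp* they overlap in both.

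Of the channel genes, *trpl* was lower in the FLAG IP and *trp* was called in neither IP. *trp* (FBgn0003861, chromosome arm 3R, 29914521 to 29920289, minus strand), which encodes the main light-activated channel, was at 5354, 7313 and 8356 CPM in the Caper inputs and at 4258, 9930.0 and 9334 CPM in the Caper IPs. It was at 6862, 5499 and 6644 CPM in the FLAG inputs and at 5800.3, 4794 and 6304 CPM in the FLAG IPs. The groups overlapped with both antibodies, and the Caper IPs held both the lowest and the highest level of the 12 libraries. Its log2 fold change was 0.18 (SE 0.35, adjusted p = 0.781) with a 95% interval of -0.65 to 1.01 with the Caper antibody, and -0.16 (SE 0.16, adjusted p = 0.474) with an interval of -0.54 to 0.22 with the FLAG antibody. In the Caper IP the sign turned without Caper input 1 or Caper IP 2, and in the FLAG IP of the alternatives run only the gene-length correction together with the replicate block called *trp* lower, at -0.28 (adjusted p = 0.0121, edgeR). *trpl* (FBgn0005614, chromosome arm 2R, 9753697 to 9765518, plus strand), the gene of the second channel, was at 3383, 2969 and 2376 CPM in the Caper inputs and at 2406, 1936 and 1679 CPM in the Caper IPs. It was at 2547, 3584 and 2355 CPM in the FLAG inputs and at 1516, 2009 and 1459 CPM in the FLAG IPs. The Caper groups overlapped by 1 library, Caper IP 1 lying above Caper input 3, and the FLAG groups did not overlap. The change was -0.52 (SE 0.18, adjusted p = 0.11) with the Caper antibody, past the threshold with the block (adjusted p = 0.00739), and -0.76 (SE 0.20, adjusted p = 0.0218) with the FLAG antibody, where the call was lost without FLAG IP 4 (adjusted p = 0.0563) or FLAG IP 6 (adjusted p = 0.071).

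Per kilobase of exon, the ratio of *trp* to *trpl* was 1.49, 2.31 and 3.30 in Caper inputs 1 to 3 and 1.66, 4.81 and 5.21 in their IPs. It was 2.53, 1.44 and 2.65 in FLAG inputs 4 to 6 and 3.59, 2.24 and 4.05 in their IPs. In 6 of 6 pairs the IP had the higher ratio, although the inputs alone varied from 1.44 to 3.30. Set against its own input, *trp* stood above the mean log2 ratio of the other 9 genes by 0.61, 1.13 and 0.65 in the Caper pairs and by 0.71, 0.77 and 0.99 in the FLAG pairs. These contrasts were chosen after the values were known and are given as a description.

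**Figure D3:**
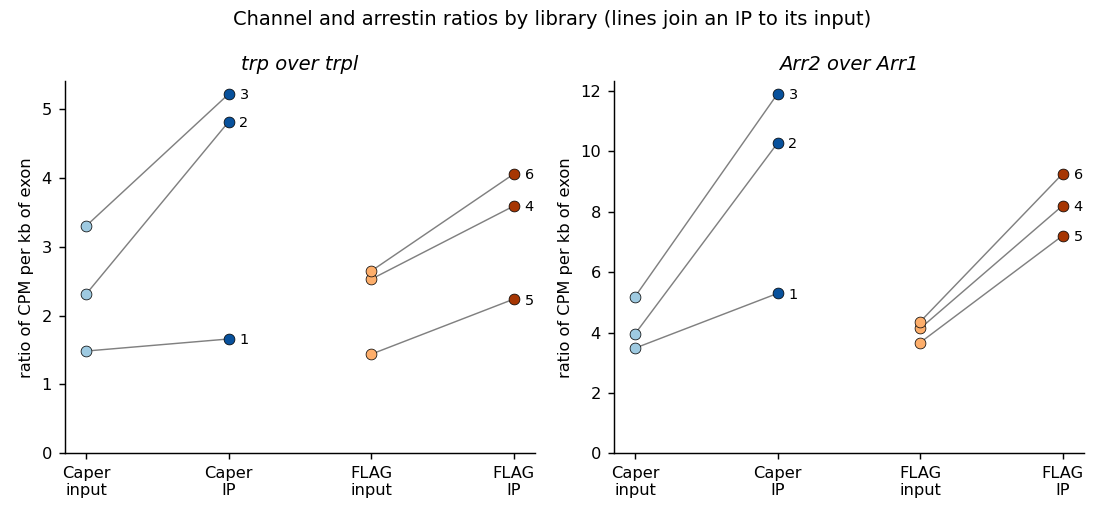
The ratio of CPM per kilobase of exon (y axis, from 0) is plotted for *trp* over *trpl* (left) and *Arr2* over *Arr1* (right) in each library, with lines that join an IP to its input and the replicate number beside it. All 12 lines rise from input to IP, least for *trp* over *trpl* in replicate 1 (1.49 to 1.66).

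The scaffold, kinase and myosin genes *inaD*, *inaC* and *ninaC* were lower in the FLAG IP, and *inaC* also in the Caper IP. *inaD* (FBgn0001263, chromosome arm 2R, 22855688 to 22858794, minus strand) encodes the PDZ-domain scaffold of the signalling complex. It was at 811, 818 and 758 CPM in the Caper inputs and 544, 623 and 673 CPM in the Caper IPs. It was at 709, 716 and 798 CPM in the FLAG inputs and 469, 506 and 530.4 CPM in the FLAG IPs. The IPs lay below the inputs without overlap, with the smallest change of the 9 genes called with the FLAG antibody. The changes were -0.36 (SE 0.11, adjusted p = 0.0799), past the threshold with the block (adjusted p = 0.0362), and -0.55 (SE 0.10, adjusted p = 0.00456). *inaC* (FBgn0004784, chromosome arm 2R, 16898535 to 16901575, plus strand) encodes the eye-specific protein kinase C. It was at 428, 499 and 439.6 CPM in the Caper inputs and 239, 305 and 342 CPM in the Caper IPs. It was at 420.1, 379 and 454 CPM in the FLAG inputs and 204, 212 and 196 CPM in the FLAG IPs. No IP overlapped an input, and the FLAG IPs were at about 0.493 of their inputs. The changes were -0.61 (SE 0.15, adjusted p = 0.0478) and -1.02 (SE 0.10, adjusted p = 0.000393), and the call in the Caper IP was lost when any library but Caper IP 1 was left out (adjusted p = 0.0556 to 0.192, edgeR) and without the filter on low counts (adjusted p = 0.0709).

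*ninaC* (FBgn0002938, chromosome arm 2L, 7377702 to 7384344, plus strand) encodes a myosin with a kinase domain that is needed to end the light response. It was at 4024, 4953 and 4965 CPM in the Caper inputs and 2370.4, 3770.5 and 4155 CPM in the Caper IPs. It was at 4427, 3883 and 4525 CPM in the FLAG inputs and 2465, 2293 and 2396 CPM in the FLAG IPs. The Caper groups overlapped, since Caper IP 3 lay above Caper input 1, and the FLAG groups were far apart beside their spread. The changes were -0.42 (SE 0.23, adjusted p = 0.281), past the threshold with the block (adjusted p = 0.0357), and -0.83 (SE 0.12, adjusted p = 0.00188).

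Of the arrestins, *Arr1* was lower in both IPs and *Arr2* in the FLAG IP. *Arr1* (FBgn0000120, chromosome arm 2L, 18078269 to 18081307, plus strand), which encodes the less abundant visual arrestin, was at 2922, 2998 and 2487 CPM in the Caper inputs and 959, 1018 and 1117 CPM in the Caper IPs. It was at 2539.9, 2610.1 and 2506 CPM in the FLAG inputs and 773, 792 and 638 CPM in the FLAG IPs. Every IP lay far below every input of its antibody, and the 3 values of each group were close together. *Arr1* had the lowest log2 fold change of the 10 genes in both IPs, -1.43 (SE 0.13, adjusted p = 0.00249) and -1.79 (SE 0.12, adjusted p = 0.000151), to 0.372 and 0.290 of the input level. *Arr2* (FBgn0000121, chromosome arm 3L, 8647261 to 8648936, minus strand), the gene of the arrestin that accounts for most of the shut-off of rhodopsin, was at 6359.7, 7408 and 8059 CPM in the Caper inputs and 3174, 6531 and 8311 CPM in the Caper IPs. It was at 6561, 5983 and 6822 CPM in the FLAG inputs and 3964, 3569 and 3689.8 CPM in the FLAG IPs. Caper IP 3 was above every Caper input and Caper IP 1 below every one, while the FLAG groups did not overlap. The changes were -0.26 (SE 0.34, adjusted p = 0.674) and -0.77 (SE 0.13, adjusted p = 0.00311), the first with a 95% interval of -1.08 to 0.56 and at 0.04 (adjusted p = 0.864, edgeR) without Caper IP 1. Per kilobase, *Arr2* over *Arr1* was 3.48 to 5.19 in the 6 inputs, 5.30, 10.3 and 11.9 in Caper IPs 1 to 3, and 7.21 to 9.26 in the FLAG IPs. The IP exceeded its own input in 6 of 6 pairs. As *Arr1* had the lowest change of the 10 genes in both IPs, this ratio is given only as a description.

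Set against the input of the same number, all 10 genes were below 0 in replicates 1, 4, 5 and 6, 9 of 10 in replicate 2 and 8 of 10 in replicate 3. The exceptions were *trp* at 0.44 and 0.16 in replicates 2 and 3, and *Arr2* at 0.04 in replicate 3. The median log2 ratio of the 10 genes was -0.80, -0.55 and -0.42 in replicates 1 to 3 and -0.83, -0.84 and -0.94 in replicates 4 to 6, while that of all genes lay between -0.04 and 0.03. The steepest single value was *Arr1* in replicate 6 at -1.97. *trpl* was the most even of the genes in the Caper pairs, at -0.49, -0.62 and -0.50, although its input level varied more than that of any other member. Counted over groups, the 3 IPs lay below the 3 inputs without overlap for 6 of 10 genes with the Caper antibody, where 18% of 11012 genes did so and 17.9% lay above, and for 9 of 10 with the FLAG antibody, where 26.8% did and 24.5% lay above. No member had its IPs above all inputs. For 1 gene, permuting 3 against 3 libraries exactly could give no p under 0.1.

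**Figure D4:**
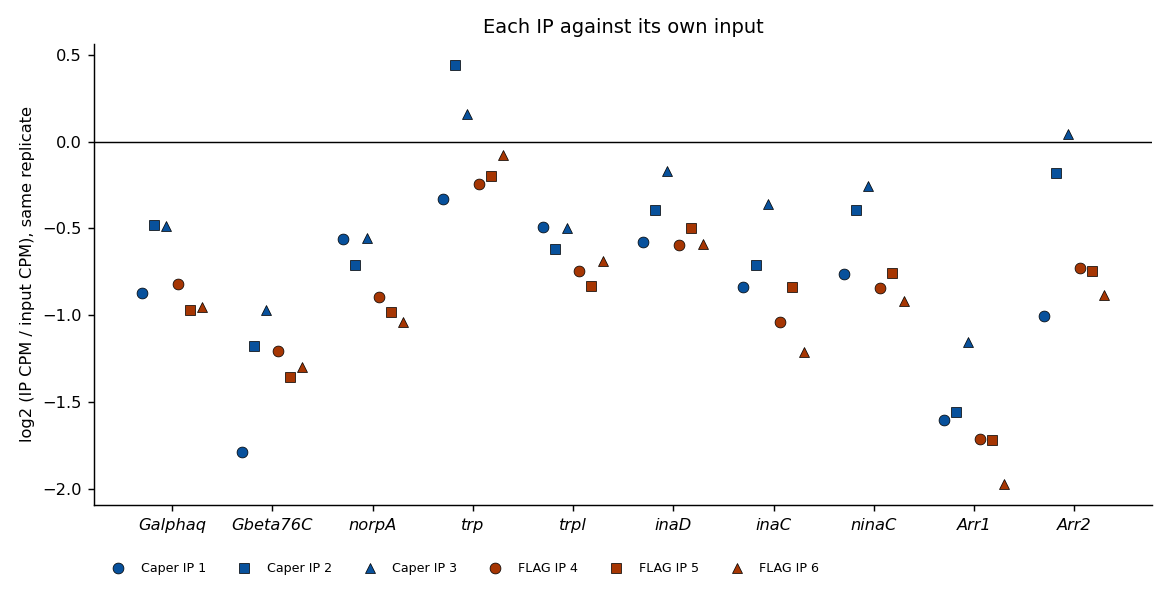
The log2 ratio of the CPM of each IP to its own input (y axis) is plotted for the 10 genes (x axis), blue for Caper pairs 1 to 3 and brown for FLAG pairs 4 to 6. Of the 60 points, 57 lie below 0, and the 3 above it are *trp* in pairs 2 and 3 and *Arr2* in pair 3.

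The change was not called different between the antibodies for any of the 10 genes. The difference, the FLAG IP change minus the Caper IP change, was fitted on all 12 libraries, and 0.145% of 11012 genes were called lower and 0.817% higher. With the replicate block 0 of the 10 were called as well, where 5.44% of genes were called lower and 6.62% higher. The members' differences had a median of -0.34 on the log2 scale, beside -0.04 over all genes, and 9 of 10 were below 0. Before adjustment 3 of the 10 members had a p below 0.05 in edgeR, where 1770 of the 11012 genes did. The 3 were *norpA* at -0.36 (SE 0.13, adjusted p = 0.217, edgeR), *inaC* at -0.41 (adjusted p = 0.296) and *Arr1* at -0.35 (adjusted p = 0.305). *Gbeta76C* had nearly the same change with both antibodies, with a difference whose 95% interval was -0.44 to 0.44. The widest intervals were those of *trp*, -1.20 to 0.54, and *Arr2*, -1.33 to 0.31. Without Caper IP 1, *Arr2* was called at -0.81 (adjusted p = 0.0387), where 2.07% of genes were called lower. When the block was used and replicate 1 left out of both IP and input, 6 of the 10 were called lower with FLAG than with Caper (*ninaC*, *Arr1*, *Galphaq*, *inaC*, *Arr2* and *trp*), where 10.5% of genes were. Without the block, *norpA* was called with DESeq2 (adjusted p = 0.0438), where 3.03% of genes with an adjusted p were called lower, and with the gene-length correction (adjusted p = 0.0215, edgeR), where 0.236% were.

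The starting material did not differ detectably. Between the FLAG and Caper inputs, 0 of the 10 genes were called in edgeR, where 0% of 9944 genes were, and 0 of the 10 and 176 of all genes had an unadjusted p below 0.05. The members' differences ran from -0.17 for *Arr2* to -0.04 for *trpl*, all below 0, with a median of -0.11. Over all 9944 genes the median was 0.0078, and 5267 of them were above 0. The 95% interval was -0.49 to 0.41 for *trpl*, the widest, and -0.25 to 0.14 for *Galphaq*, the narrowest.

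The rhodopsins upstream of these genes were lower in the FLAG IP and mostly not called in the Caper IP. With the FLAG antibody 5 of 7 were called lower, where 20.8% of 10476 genes were. They were led by *Rh5*, the rhodopsin of blue-sensitive R8 cells, at -1.59 (SE 0.10, adjusted p = 0.000113), *Rh3*, an ultraviolet rhodopsin, at -0.87 (adjusted p = 0.00417) and *Rh6* of the green-sensitive R8 cells at -0.65 (adjusted p = 0.00135). *ninaE*, the main rhodopsin of the outer photoreceptors, was at -0.48 (adjusted p = 0.0544, 0.00304 with the block) in the FLAG IP. With the block all 7 were called lower, where 29.5% of genes were. In the Caper IP 1 of 7 was called lower, *Rh5* at -0.76 (adjusted p = 0.0473), where 7.53% of 10778 genes were. The median was 0.03, with *ninaE* at 0.20 (adjusted p = 0.541). For the difference between the antibodies 0 of 7 rhodopsins were called, where 0.145% of 11012 genes were called lower. With the block 4 of 7 were called lower, where 5.44% of genes were.

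Other components of the pathway moved in both directions. Of 35 genes in 5 lists that supply, tune or terminate the cascade, 33 were tested. In the Caper IP 10 of them were called lower and 1 higher, with a median of -0.27, and in the FLAG IP 10 lower and 4 higher, with a median of -0.12. With the block these counts were 15 and 3, and 14 and 6. Calls lower made up 7.53% of all genes for Caper and 20.8% for FLAG, or 14.8% and 29.5% with the block. Calls higher made up 6.33% of all genes for Caper and 19.5% for FLAG, or 15.8% and 29.6% with the block. In the phosphoinositide cycle, which remakes PIP2, the synthesis genes *Pis* (phosphatidylinositol synthase) and *Cds* (CDP-diacylglycerol synthase) fell in both IPs, *Pis* at log2 fold changes of -1.13 (adjusted p = 0.00466) and -1.52 (adjusted p = 8.33e-05) and *Cds* at -0.71 (adjusted p = 0.0137) and -1.21 (adjusted p = 0.000151). The lipid kinase gene *Pi4KIIIalpha* also fell in both, at -0.38 (adjusted p = 0.0188) and -0.59 (adjusted p = 0.00391). By contrast *sktl*, which encodes a kinase that makes PIP2, rose, at 0.69 (adjusted p = 0.0386) and 0.70 (adjusted p = 0.0122). In the FLAG IP *Pld*, a phospholipase D gene, rose, at 1.40 (adjusted p = 0.00115) and *PIP5K59B*, another PIP2-making kinase gene, at 0.42 (adjusted p = 0.00973), and their Caper IP values were 0.64 (adjusted p = 0.0748) and -0.02 (adjusted p = 0.955).

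Among the regulators of rhodopsin and calcium, *CaMKII*, a kinase that phosphorylates Arr2, fell, at -0.83 (adjusted p = 0.011) with the Caper antibody and -0.88 (adjusted p = 0.000984) with the FLAG antibody. *rdgC*, the calcium-dependent rhodopsin phosphatase gene, fell, at -0.48 (adjusted p = 0.0261) and -0.45 (adjusted p = 0.0065). The receptor kinase gene *Gprk1* was at -0.55 (adjusted p = 0.06, 0.00379 with the block) and -0.87 (adjusted p = 0.00331), and *Camta*, a calmodulin-binding transcription factor gene, at -0.49 (adjusted p = 0.0133) and 0.16 (adjusted p = 0.299). The third subunit gene of the visual G protein, *Ggamma30A*, was called in neither IP, at -0.09 (adjusted p = 0.611) and -0.28 (adjusted p = 0.106, 0.0213 with the block), where *Gbeta76C* stood at -1.27 and -1.28. Of the other channel and calcium genes, the exchanger gene *Nckx30C* fell with the Caper antibody, at -0.46 (adjusted p = 0.0235), and was at -0.09 (adjusted p = 0.587, 0.461 with the block) with the FLAG antibody. The kinase gene *Pkc53E* fell with Caper, at -0.32 (adjusted p = 0.0494), and was at -0.27 (adjusted p = 0.0672, 0.00494 with the block) with FLAG. *inaF-D*, of the locus that encodes a TRP-associated protein, rose with FLAG, at 0.86 (adjusted p = 0.0404) on 18 to 221 counts per library, and was at 0.26 (adjusted p = 0.668, 0.415 with the block) with Caper.

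Of the genes that fold rhodopsin and TRP, *ninaA*, a cyclophilin chaperone of rhodopsin, was at -0.45 (adjusted p = 0.44) with the Caper antibody and fell, at -1.08 (adjusted p = 0.000653) with the FLAG antibody, while *Xport-A* and *Xport-B* had 0 and at most 5 counts per library and were not tested. In retinoid supply *ninaG*, an oxidoreductase gene of chromophore synthesis, fell, at -0.88 (adjusted p = 0.0399) and -1.001 (adjusted p = 0.00283), and *Pdh*, the retinol dehydrogenase gene of pigment cells, was at -0.89 (adjusted p = 0.144, 0.00206 with the block) and -0.99 (adjusted p = 0.00793).

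**Figure D5:**
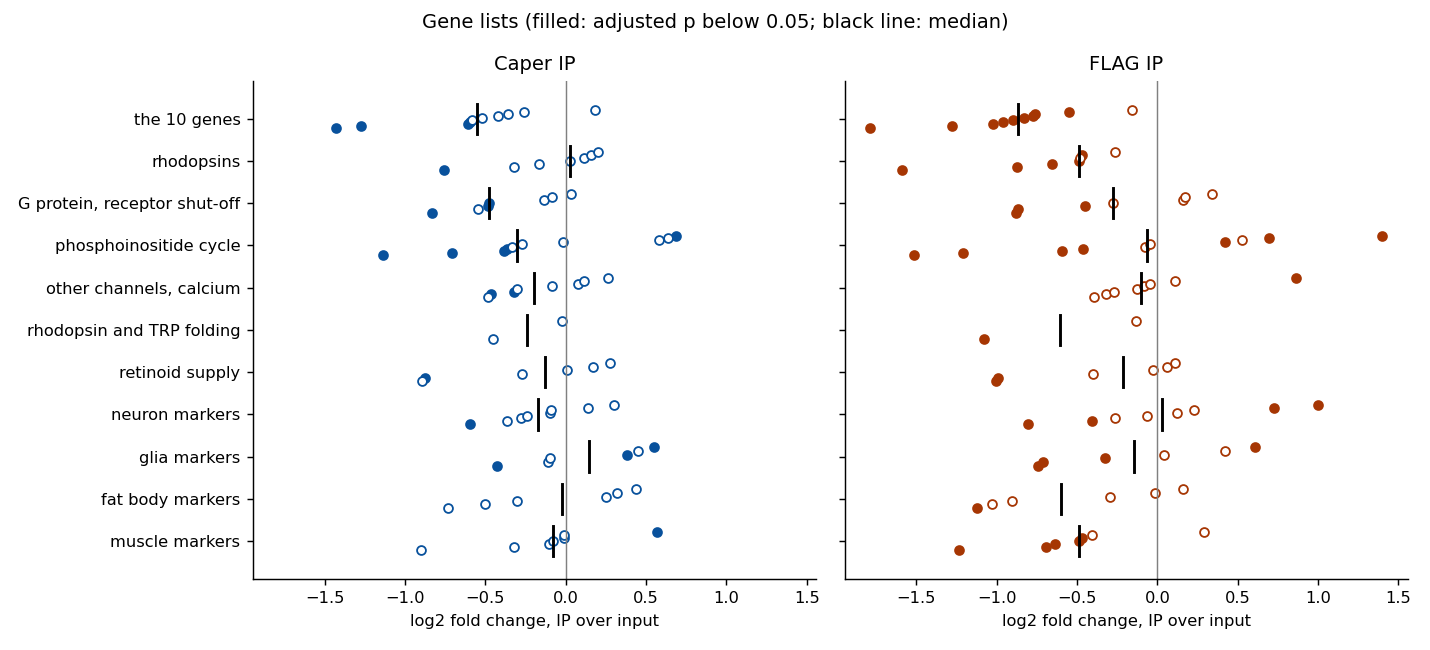
The log2 fold change of IP over input (x axis) is plotted for each gene of 11 lists (y axis) in the Caper IP (left) and the FLAG IP (right), filled where the adjusted p is below 0.05 and with a black line at each list's median. The 10 genes have the lowest median of the lists shown, -0.55 with the Caper antibody and -0.87 with the FLAG antibody.

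Markers of the cells in a head moved as follows, and their part in the results was not tested. Photoreceptor markers, which include 5 rhodopsins, summed to 26714 to 38081 CPM in the Caper IPs, beside 26834 to 32569 in their inputs. The FLAG IPs held 17466 to 21863 CPM, beside 27544 to 28714. Most of these sums was *ninaE*, with a mean of 24102.5 CPM over the Caper inputs and 27437 CPM over their IPs. Its FLAG means were 22561 CPM for inputs and 16005 CPM for IPs. The sums therefore mainly followed *ninaE*. Over the 12 markers the median log2 fold change was -0.17 for Caper, with 5 above 0. For FLAG it was -0.50, with 3 above 0. Of the 12, 3 were called lower in the Caper IP (*t*, *eys* and *Rh5*), and 7 lower and 1 higher in the FLAG IP, the 1 being *gl*, an eye transcription factor gene, at 0.44 (adjusted p = 0.0226). The histamine-recycling gene *t* was at -0.98 (adjusted p = 0.0204) and -1.24 (adjusted p = 0.00168). Of 4 tested pigment and cone cell markers, *Crys*, a lens protein gene, fell, at -1.05 (adjusted p = 0.017) and -1.83 (adjusted p = 0.000138), and *w*, a pigment transporter gene, was at 0.47 (adjusted p = 0.195) and rose, at 0.94 (adjusted p = 0.024). The markers *st* and *v* were below 0 and not called, at -0.25 and -0.04 for Caper and -0.40 and -0.46 for FLAG. With the block both were called lower in the FLAG IP (adjusted p = 0.0274 and 0.0238, edgeR). Of 8 neuron markers, 1 was lower in the Caper IP, *nrv3* at -0.59 (adjusted p = 0.0164). In the FLAG IP 2 were lower, *nrv3* at -0.80 (adjusted p = 0.00173) and *VAChT* at -0.41 (adjusted p = 0.0244), and 2 were higher, *brp* and *Rdl*. Neuron sums were 6977 to 7206 CPM in the Caper IPs and 8115 to 8345 CPM in the FLAG IPs, beside 7493 to 8047 in all inputs.

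The counts of the lists below stand beside the same shares of all genes. These were 7.53% lower and 6.33% higher for Caper, and 20.8% lower and 19.5% higher for FLAG. Of 6 glia markers 2 were higher in the Caper IP, *repo* at 0.55 (adjusted p = 0.0268) and *moody* at 0.38 (adjusted p = 0.0221), and 1 lower, *Eaat1* at -0.43 (adjusted p = 0.024). In the FLAG IP *repo* was higher at 0.61 (adjusted p = 0.0305), and *Eaat1*, *alrm* and *nrv2* were lower, at -0.74 (adjusted p = 0.000541), -0.71 (adjusted p = 0.00221) and -0.32 (adjusted p = 0.0164). Glia sums were 1756 to 2051 CPM in the Caper IPs and 1407 to 1529.9 CPM in the FLAG IPs, beside 1437 to 1669 in all inputs. Of 6 fat body markers 0 were called with the Caper antibody and 1 was lower with the FLAG antibody, *apolpp* at -1.12 (adjusted p = 0.0019), with sums of 4114 to 10266 CPM beside 6728 to 11912 in the FLAG inputs. Of 7 muscle markers 1 was higher in the Caper IP, *up* at 0.57 (adjusted p = 0.0385), and 5 were lower in the FLAG IP, led by *bt* at -1.23 (adjusted p = 0.0172), *wupA* at -0.69 (adjusted p = 0.00162) and *Mhc* at -0.64 (adjusted p = 0.0125). Muscle sums were 11593 to 12968 CPM for Caper IPs and 9578 to 10193 CPM for FLAG IPs, beside 11527 to 15685 in the inputs. Both tested haemocyte markers, *NimC1* and *Hml*, were lower in the FLAG IP, at -0.87 (adjusted p = 0.00754) and -0.74 (adjusted p = 0.0318). Germ line markers summed to 2.40 to 4.05 CPM in all 12 libraries, and none was called.

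The genes whose profile over the 12 libraries lay closest to the mean profile of the 10 were sought among the 11002 other genes, by the root mean square (RMS) difference of centred log2 CPM. The nearest were *porin* (RMS 0.0773), the gene of a mitochondrial outer membrane channel, *SPoCk* (0.0840), a secretory pathway calcium pump gene, *COX6B* (0.0843), a cytochrome c oxidase subunit gene, *Coq6* (0.0860) of coenzyme Q synthesis, and *Pi3K59F* (0.0895), a phosphatidylinositol 3-kinase gene. Of the members, *Galphaq* (0.0801) and *inaC* (0.0806) lay nearest to the mean profile and *Arr1* (0.441) and *trp* (0.438) farthest from it.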

How the data were processed

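RNA from 12 libraries of adult heads was analysed. Per the labels, the authors prepared total RNA libraries, trimmed reads with fastp (version 0.20.1, with FastQC 0.11.8), mapped them with STAR (2.7.6a) and counted read pairs on exons by strand with featureCounts of Subread (2.0.1). They deposited raw counts of 17612 genes, not normalized, in 1 table that also gives each gene's position and its exon length in bases. Totals were 9615414 to 34264177 counts per library. Symbols came from RefSeq genes at the same position, for 17133 genes.

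Each antibody's 3 IPs were tested against its 3 inputs with edgeR (4.0.16, limma 3.58.1, R 4.3.3), with TMM scaling, a filter on low counts (minimum 10, total 15), the quasi-likelihood test and Benjamini-Hochberg adjustment over all genes tested, and calls were made at 0.05. The difference between antibodies used all 12 libraries as 4 groups, and the inputs were compared in a fit of their own. SEs are log2 fold changes over the square root of F. Values on the log scale used a prior count of 2. The labels do not say whether replicates were separate cultures of flies, so p-values measure the spread between these samples only. The script was tested on simulated data.

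The labels tie each IP to its input by number. After group means were removed, same-numbered libraries correlated at 0.152 to 0.770 over 11012 genes (median 0.623). Other pairings within an antibody ran from -0.714 to 0.565, with a median of -0.28. Caper IP 2 correlated at 0.152 with its own input and at 0.565 with Caper input 3. Removing the mean of 3 libraries itself pushes the other pairings below 0 where the same-numbered pair is above it. The methods name no replicate term, so the block is given as an alternative. Without it, the coefficient of biological variation was 0.247 and 0.176, with it 0.106 and 0.0731.

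Alternatives were DESeq2 (1.42.0), RLE scaling, no filter, each library left out, the block, all 12 libraries in 1 fit, and a correction for exon length (lowess, span 0.5) with and without the block. The block without 1 pair and DESeq2 with the block were added after seeing the data. Members, lists and tests were chosen with earlier results of these data known. Text names all members. Of each other list it names up to 3 genes called per direction and IP with the largest change, or the largest not called where fewer were, and 5 genes most like the members. *nos* of the germ line list was not found in the table by symbol and was not used.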

Additional observations from a re-analysis of the deposited data

Results flagged for a closer look

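Of 8 neuron marker genes, 2 were called in the test of the difference between the antibodies, both higher with FLAG. Over all 11012 genes 0.817% were called higher. The 8 differences had a median of 0.07, with 4 above 0 and a lowest value of -0.21. *brp*, the gene of an active zone protein, differed by 0.86 (SE 0.15, adjusted p = 0.0286) on the log2 scale in edgeR, with a change of 0.14 (adjusted p = 0.381) in the Caper IP and 0.9999 (adjusted p = 0.00106) in the FLAG IP. *Rdl*, a GABA receptor gene, differed by 0.82 (SE 0.13, adjusted p = 0.0245), with -0.09 (adjusted p = 0.552) in the Caper IP and 0.73 (adjusted p = 0.00214) in the FLAG IP. None of the 10 phototransduction genes met this test.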

How the results depend on the processing

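The FLAG IP kept its direction for all 10 genes under every alternative run, with 167 of 170 member values on the same side of the threshold, and Caper IP *Arr1* kept its call throughout. The number of members called lower in the Caper IP, 4, became 7 with DESeq2 and 8 with the replicate block, with the block and gene-length correction, with DESeq2 and the block, and with the block without replicate 1 of both IP and input, and ran from 1 to 6 when 1 library was left out. The number of members whose change was lower with FLAG than with Caper, 0, became 1 with DESeq2, 1 with the gene-length correction, 1 with DESeq2 and the block, 2 with the block and gene-length correction (*Galphaq* and *norpA*), and 6 with the block without replicate 1, and ran from 0 to 1 when 1 library was left out. The replicate block called 0 members for that difference and changed no member's call in the FLAG IP. For the block combined with DESeq2 or with the gene-length correction, the share of all genes called is not given here. The same holds for the Caper IP with the block without replicate 1. The counts of members called in these fits therefore cannot be set against a background.

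Signs turned only for values that were not called. In the Caper IP *trp* ran from -0.02 to 0.47 and *Arr2* from -0.57 to 0.04 when 1 library was left out, the negative *trp* values being -0.0027 without Caper input 1 and -0.023 without Caper IP 2, and the positive *Arr2* value 0.045 without Caper IP 1. With the block and without replicate 2, *trp* was at -0.065. Between the inputs *trpl* ran from -0.25 to 0.083, being above 0 without Caper input 1 (0.083), FLAG input 4 (0.017) or FLAG input 6 (0.074). The difference between antibodies for *Gbeta76C*, 0.00027, was -0.022 without the filter, -0.21 with the block without replicate 1, -0.019 with the block without replicate 4, and ran from -0.17 to 0.11 when 1 library was left out (-0.03 without Caper input 1, -0.031 without Caper input 2, -0.04 without FLAG input 4, -0.17 without Caper IP 1, -0.012 without FLAG IP 4, -0.011 without FLAG IP 6). The cause was not tested. Over all genes, calls in the Caper IP rose from 682 to 1708 higher and from 812 to 1599 lower with the block, and fell to 5 higher and 107 lower without Caper input 2. For the difference, 90 higher and 16 lower became 729 and 599 with the block, and 455 and 185 with DESeq2. In the class of shortest exons, to which no member belonged, median log2 fold changes were -0.22 for Caper and -0.45 for FLAG. In the longer classes, to which the members belonged, the medians ran from -0.10 to 0.10 for Caper and from -0.03 to 0.15 for FLAG. The lowest count of a member was 2574, and the part of depth in the results was not tested.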
